A study of Mus musculus with 20 samples.

Results

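RAW264.7 is a mouse monocyte/macrophage-like cell line, and in this experiment it was given a complex of HMGB1 and IL-1β or the control protein BSA. The 6 RAW264.7 libraries of the 20 in the series were used, 3 given BSA and 3 given the complex, all from cells of genotype WT treated for 6 hours. The labels write the HMGB1 of the complex as [O] HMGB1 and give no dose. Of 24968 gene symbols in the RAW264.7 table, the 3383 whose mean reached 20 TPM, a transcript level scaled by gene length and library total, in either group were tested. The other 14 libraries are total liver of WT and RageΔMye mice on a control or alcoholic diet, and they serve below only to set levels beside. No library used here received HMGB1 or IL-1β alone, so the parts of the complex cannot be told apart. All 6 libraries come from 1 cell line, and nothing in the labels says that they came from separate cultures, so p-values measure only the spread between these samples, which may be technical.

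HMGB1 is a nuclear DNA-binding protein that acts as an alarm signal when cells release it, and it is known to engage RAGE (gene Ager) and the Toll-like receptors TLR2 and TLR4. IL-1β binds the IL-1 receptor (Il1r1) with its accessory chain (Il1rap). The Toll-like and IL-1 receptors lead through the adaptor MyD88 to the transcription factors NF-κB and AP-1. In macrophages these factors are known to switch on TNF, chemokines, the itaconate enzyme ACOD1 and the inhibitors that later shut the pathway down.

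The sequencing depth behind the values is unknown, because TPM does not carry it. Each RAW264.7 library held 8629 to 9229 symbols above 0, and the positive value shared by the largest number of symbols in a library lay between 9.85 and 13.4 TPM, against 0.058 to 0.084 TPM in the WT livers. In all 6 libraries, 376 of the tested symbols (11.1%) sat at whole multiples of that most frequent value, within 0.1% of the multiple. Symbols with an exon opposite an exon of another gene on the other strand held 72.5 to 76.2% of the TPM in the RAW264.7 libraries, 15.4 to 18.3% in the WT livers and 57.8 to 63.7% in the RageΔMye livers. The share was 74.5 ± 1.87% (SD, n = 3) with BSA and 74.2 ± 0.940% (SD, n = 3) with the complex, a difference within the spread between libraries (exact permutation test, two-sided p = 0.9, where 0.1 is the smallest the design allows). The library kit marks strand, but the strand setting of the counting is not given in the sources used here, so reads of a gene and of its opposite-strand partner cannot be told apart, and this touches many of the symbols below. Pearson correlations of log2(TPM + 1) between libraries were 0.825 to 0.850 within a group and 0.784 to 0.825 between groups.

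Most macrophage markers were detected in the labelled line. Of 42 identity genes in the table, 39 were above 0 in at least 1 library, among them Cd68, Lyz2, Cd14, Csf1r and Trem2, while Fcgr1, Mrc1 and Maf were listed at 0 in all 6. Their summed level was 2857 to 3715 TPM with BSA and 3091 to 3552 TPM with the complex. All 10 T and NK cell markers were at 0, and summed levels in any library reached at most 2.29 TPM for fibroblast and stellate markers, 18.7 for endothelial, 1.37 for epithelial, 9.85 for B cell and 23.0 for neutrophil markers. Of the hepatocyte markers 11 of 12 were at 0, and Apoa2 alone accounted for 20.4 to 49.1 TPM.

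After 6 hours of the complex, TNF, a set of chemokines and the itaconate enzyme stood several-fold above the BSA libraries, while most of the macrophage transcriptome did not pass the test. The test called 36 symbols, 1.06% of those tested, at an adjusted p under 0.05 (limma on log2(TPM + 1), Benjamini-Hochberg over all 3383). Of these, 26 were higher with the complex (0.769%) and 10 were lower (0.296%), and the split was 27 higher and 3 lower under median-of-ratios scaling and 27 and 5 under quantile normalization. The 3 complex libraries did not overlap the 3 BSA libraries in all 36, and in 711 symbols overall (21.0%), of which 305 (9.02%) were higher and 406 (12%) lower. The median log2 difference over all tested symbols was -0.07. Among called symbols, 24 rises and 3 falls reached a log2 difference of 1, whereas over all tested symbols 229 were at least that much higher and 271 at least that much lower. Without adjustment, 488 symbols (14.4%) had an unadjusted p under 0.05, 211 higher (6.24%) and 277 lower (8.19%).

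The calls followed the level of the gene. Of 1705 tested symbols with a mean below 50 TPM, 2 were called (0.117%), and of 150 symbols at 1000 TPM or more, 12 were called (8.0%). The median SD of log2(TPM + 1) among BSA replicates fell from 0.49 in the lowest of these classes to 0.11 in the highest, so changes of weakly expressed cytokines and receptors had to be larger to be called. The calls also depended on the number of libraries: 11 of the 36 were called in each of the 6 fits that left out 1 library, 11 in some of them and 14 in none.

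**Figure D1:**
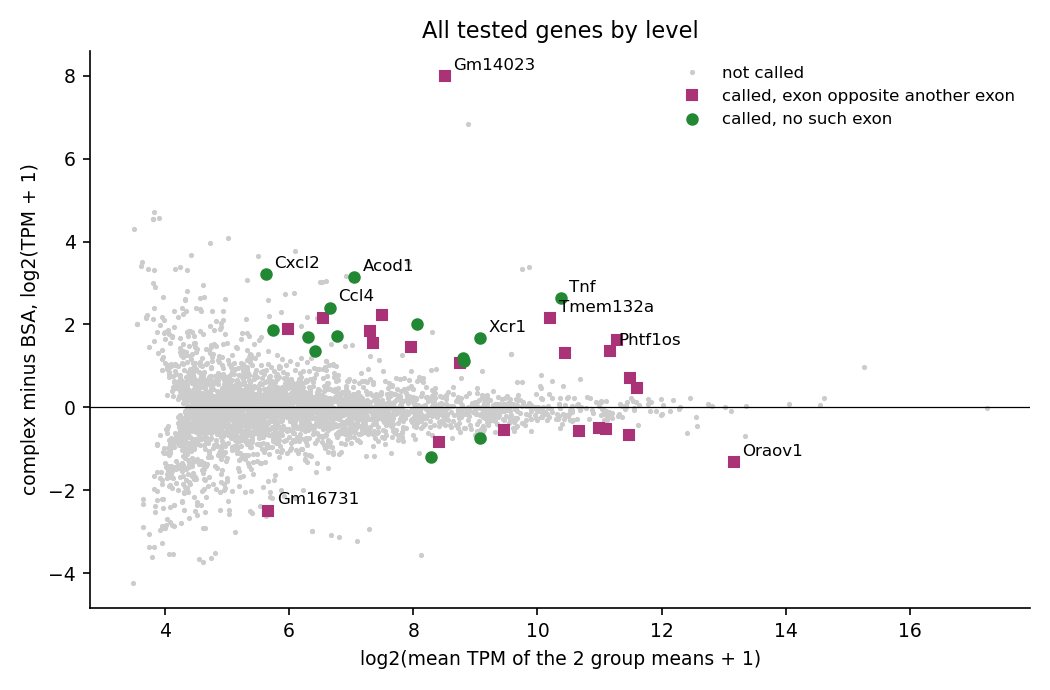
Each point is a tested symbol, with the level over both groups on the horizontal axis (log2(TPM + 1)) and the difference, complex minus BSA, on the vertical axis (log2). Squares and circles are the 36 called symbols, squares where an exon lies opposite an exon of another gene; Gm14023 stands at 7.99 and Oraov1, the highest in level, at -1.32.

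Tnf, which encodes the cytokine tumour necrosis factor, was at 270, 415 and 437 TPM with BSA and at 2455, 2204 and 2215 TPM with the complex. The groups were far apart, and each group was tight against the gap. The log2 difference was 2.64 (SE 0.19, adjusted p = 0.00090), a ratio of mean TPM of 6.12, and the call held in all 6 fits without 1 library, with an adjusted p up to 0.012. Tnf lies on chr17:35199381-35202007 of GRCm38, on the minus strand, with no exon opposite another gene.

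Cxcl2, a neutrophil-attracting chemokine, was at 5.92, 13.3 and 7.73 TPM with BSA and at 90.0, 77.4 and 95.7 TPM with the complex. Its BSA values lay near the most frequent value above 0 of their libraries, so the ratio rests on a low base. The log2 difference was 3.21 (SE 0.37, adjusted p = 0.0094); without any 1 of the complex libraries the call was lost, with an adjusted p up to 0.081.

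Ccl4, a chemokine for monocytes and T cells, was at 19.7, 33.3 and 40.1 TPM with BSA and at 164, 115 and 226 TPM with the complex, a log2 difference of 2.40 (SE 0.35, adjusted p = 0.027). In units of the most frequent value of each library, these were 2, 3 and 3 against 15, 10 and 21. Ccl2, the monocyte chemoattractant MCP-1, was at 37.3, 62.7 and 49.9 TPM with BSA and at 205, 124 and 172 TPM with the complex, a log2 difference of 1.72 (SE 0.28, adjusted p = 0.039). For both chemokines the groups did not overlap, but the call was lost in every fit that left out 1 library, with adjusted p up to 0.12 for Ccl4 and 0.18 for Ccl2.

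These 4 genes were the called members of a list of 32 cytokines and chemokines, of which 14 were tested. Over all tested symbols 0.769% were called higher. None of the 14 was called lower, 10 did not overlap upward (against 9.02% of all tested symbols) and the median log2 difference was 2.02, against -0.07 over all tested. Of the 14, 8 had a BSA mean below 20 TPM and were tested only because they were high with the complex, so these figures are partly set by the minimum. Without the minimum, 18 of the 21 list members detected in any library were higher with the complex and 3 lower, with a median of 1.77, against 5278 higher and 6691 lower and a median of -0.08 over 11969 detected symbols. The summed level of the list was 1277, 1647 and 1563 TPM with BSA and 5097, 4107 and 4497 TPM with the complex. Ccl3, Lif, Ccl9 and Csf3 are given here after their values were seen. Ccl3, a chemokine close to Ccl4, was at 640, 911 and 801 against 1562, 1137 and 1333 TPM, with a log2 difference of 0.78 and an adjusted p of 0.091. Lif, a cytokine of the IL-6 family, was at 0, 2.71 and 9.75 against 74.2, 63.5 and 38.9 TPM (adjusted p = 0.092), and Ccl9 and Csf3, the granulocyte colony-stimulating factor, did not overlap either (adjusted p = 0.12 and 0.20). Tnfsf9 and Ebi3 were the tested members with a negative difference, -0.35 and -0.11, and their groups overlapped.

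Acod1, the mitochondrial enzyme that makes itaconate from a citric acid cycle intermediate, was at 32.4, 33.0 and 15.9 TPM with BSA and at 228, 238 and 242 TPM with the complex. The complex libraries were nearly level with each other, and the lowest stood several-fold above the highest BSA library. The log2 difference was 3.15 (SE 0.30, adjusted p = 0.0037), and the call held in all 6 fits without 1 library. Acod1 lies on chr14:103046977-103056573 of GRCm38, on the plus strand, with no exon opposite another gene. It was the called member among 6 tested of 32 inflammatory effector genes, against 0.769% of all tested symbols called higher. The median log2 difference of the 6 was 1.24, but 2 of them reached the minimum only with the complex. Over 22 detected members the median was 0.87. Icam1, the leukocyte adhesion molecule, and Clec4e, a receptor for mycobacterial glycolipid, did not overlap and did not pass (log2 differences of 1.38 and 1.09, adjusted p = 0.12 and 0.25). Both were chosen after their values were seen.

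The sequence before the start of 3 of these genes, and of Il1a, which lies opposite the symbol with the largest rise, is shown because the genes share a direction or a locus. Each run is the 250 bases before the annotated start, from RefSeq on GRCm38.p6, read along the gene's strand from 5′ to 3′, with capitals marking matches to the NF-κB consensus (named kappa-B) or to the AP-1 element TGANTCA on either strand. The positions are chr5:90903649-90903898, plus strand, for Cxcl2; chr17:35202008-35202257, minus strand, for Tnf; chr14:103046762-103047011, plus strand, for Acod1; and chr2:129309973-129310222, minus strand, for Il1a.
Cxcl2: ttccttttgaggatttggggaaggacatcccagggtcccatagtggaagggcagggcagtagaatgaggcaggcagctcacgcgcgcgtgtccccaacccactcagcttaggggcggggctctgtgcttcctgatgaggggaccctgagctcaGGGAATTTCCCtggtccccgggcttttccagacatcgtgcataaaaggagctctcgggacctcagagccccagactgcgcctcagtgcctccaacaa
Tnf: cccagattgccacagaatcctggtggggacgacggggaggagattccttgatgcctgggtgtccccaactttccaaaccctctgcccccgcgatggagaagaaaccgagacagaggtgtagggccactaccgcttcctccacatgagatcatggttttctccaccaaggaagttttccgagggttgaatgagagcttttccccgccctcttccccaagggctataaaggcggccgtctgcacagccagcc
Acod1: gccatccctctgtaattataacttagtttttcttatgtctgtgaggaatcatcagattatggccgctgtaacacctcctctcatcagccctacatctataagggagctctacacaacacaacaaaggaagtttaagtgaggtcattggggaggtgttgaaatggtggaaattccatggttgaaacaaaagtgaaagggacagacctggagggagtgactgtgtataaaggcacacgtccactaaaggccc
Il1a: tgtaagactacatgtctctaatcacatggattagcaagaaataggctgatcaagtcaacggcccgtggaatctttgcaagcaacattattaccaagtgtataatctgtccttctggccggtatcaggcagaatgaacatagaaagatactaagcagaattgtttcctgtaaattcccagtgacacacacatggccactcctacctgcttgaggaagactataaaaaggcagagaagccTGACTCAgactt
The Cxcl2 run holds 2 overlapping kappa-B matches that begin 97 and 96 bases before the start, the Il1a run holds an AP-1 match that begins 12 bases before it, and the Tnf and Acod1 runs hold neither set of letters in this window. Over 27025 genes with such a run, 3.75% hold a kappa-B match and 6.87% an AP-1 match. Among the 20 called rises with a run, 1 holds a kappa-B match (5.0%) and 2 an AP-1 match (10%). RefSeq gave no run here for Ccl2 or Ccl4.

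Genes of the NF-κB feedback and survival list, which holds the inhibitors and anti-apoptotic proteins that NF-κB induces, were mostly higher with the complex. Of 41 detected members 36 were higher and 5 lower, with a median log2 difference of 0.98. The 16 tested members had differences from 0.29 to 2.99 with a median of 1.31, but 8 of them reached 20 TPM only with the complex, so that sign was partly set by the minimum. Of the 16, 1 was called (against 0.769% of all tested symbols called higher) and 8 did not overlap upward (against 9.02%). Below the minimum, Rela, the NF-κB subunit p65, was at 14.9, 25.3 and 18.3 against 5.06, 14.6 and 6.83 TPM, lower in every complex library than in any BSA library, and Irak3, an inhibitory kinase of the pathway, was at 13.1, 14.7 and 20.3 against 14.4, 5.84 and 5.44 TPM; neither was tested, and both were chosen after their values were seen. Tnfaip2, a TNF-induced protein, was at 21.0, 26.8 and 30.0 TPM with BSA and at 104, 79.1 and 111 TPM with the complex (log2 difference 1.88, SE 0.26, adjusted p = 0.024), and it lost the call in every fit without 1 library (adjusted p up to 0.12). A lncRNA gene, Gm40578, lies opposite 314 of its exonic bases. Nfkbia, the inhibitor IκBα, and Tnfaip3, the deubiquitinase A20, both chosen after their values were seen, did not overlap and did not pass. Nfkbia was at 20.3, 22.7 and 59.9 against 129, 158 and 128 TPM (log2 difference 2.14, adjusted p = 0.064), the third BSA library lying above the other two. Tnfaip3 was at 6.72, 3.02 and 4.32 against 36.1, 23.7 and 39.9 TPM (log2 difference 2.61, adjusted p = 0.092). Among the alternatives, Nfkbia passed only with a minimum of 50 TPM and without BSA replicate 3. Tnfaip3 passed only without the trend of the variance with level.

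**Figure D2:**
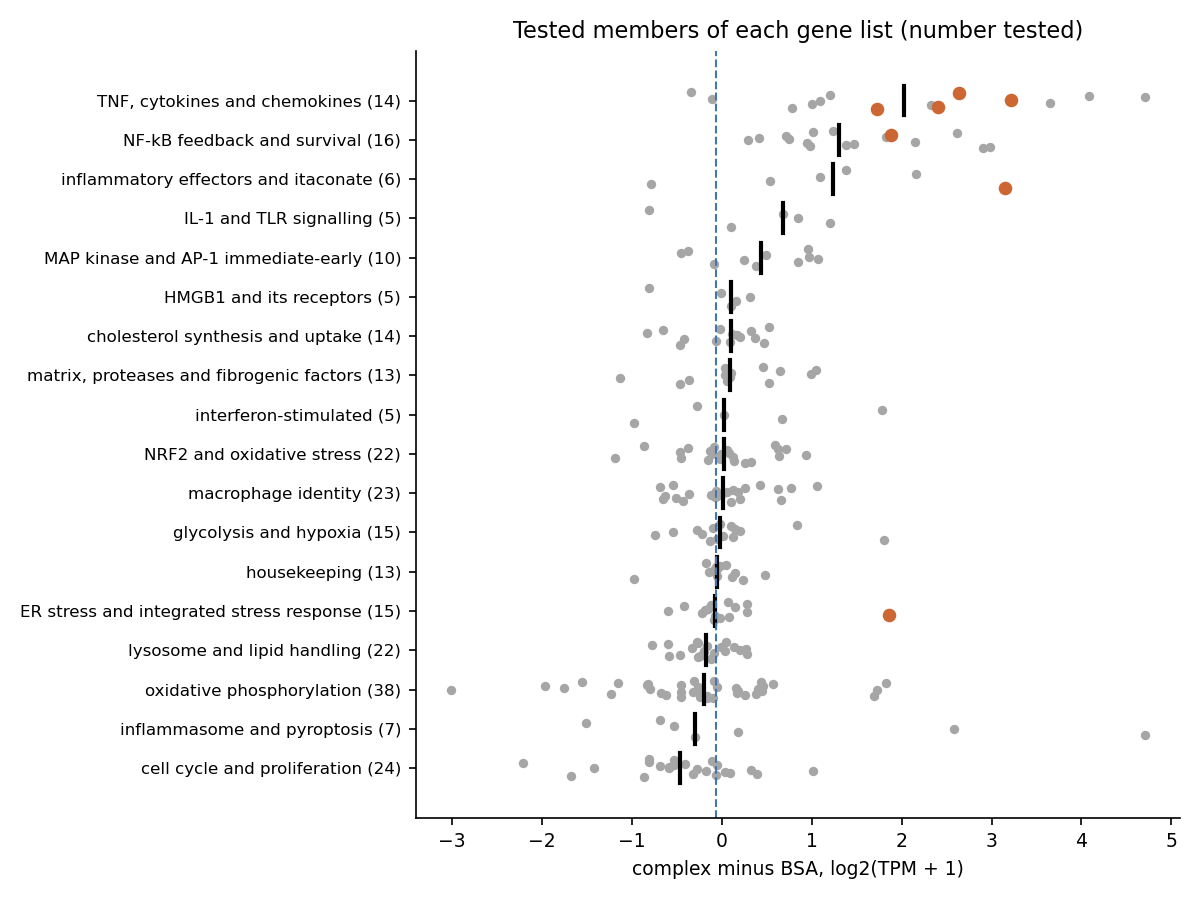
Each point is a tested member of a gene list, placed by its log2 difference, complex minus BSA; coloured points passed the test, black bars are list medians and the dashed line is the median of all tested symbols, -0.07. The cytokine, NF-κB and effector lists have medians of 2.02, 1.31 and 1.24. Of their members, 8 of 14, 8 of 16 and 2 of 6 were tested only through the complex group. The cell cycle list, at -0.47, is the lowest, with 5 of 24 members tested only through the BSA group.

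Of 8 genes of the complex and its receptors, Hmgb1, Il1b, Il1rn and Tlr2 were tested and did not pass, and the other 4 lay below the minimum and were not tested. Hmgb1 was at 87.5, 92.4 and 64.2 TPM with BSA and at 128, 75.8 and 102 TPM with the complex, and the groups overlapped (log2 difference 0.31, adjusted p = 0.63). Il1b was listed at 0 in all 3 BSA libraries and at 25.9, 36.1 and 16.9 TPM in the complex libraries, which did not overlap (adjusted p = 0.21). Il1b did pass with a minimum of 1 TPM and without the trend of the variance with level. Il1rn, the natural antagonist of the IL-1 receptor, was at 22.3, 10.6 and 12.8 against 38.9, 48.1 and 10.1 TPM, and Tlr2 was at 25.4, 14.3 and 21.4 against 24.5, 7.33 and 6.85 TPM, with adjusted p of 0.60 for each. The receptor genes Il1r1 and Ager were listed at 0 in all 6 libraries, Tlr4 reached at most 0.86 TPM and Il1rap at most 2.47 TPM. Opposite 552 exonic bases of Il1rap lies Gm20319, which was at 1271, 955 and 1041 against 1169, 999 and 914 TPM.

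In the wider lists of IL-1 and Toll-like receptor signalling (5 of 39 tested) and of HMGB1 and its receptors (5 of 17 tested) none was called by limma, with 1 and 0 members at an unadjusted p under 0.05. Ikbke, an IκB kinase family member, was at 18.7, 17.8 and 12.8 against 44.7, 25.3 and 51.1 TPM (limma adjusted p = 0.23). It reached the minimum only with the complex. Myd88, the adaptor of the IL-1 and Toll-like receptors, overlapped between groups (limma adjusted p = 0.50). Of 7 tested inflammasome and pyroptosis genes none was called, and 2 had an unadjusted p under 0.05 (14.4% of all tested symbols did). Both, Il1b and Nlrp3, had a BSA mean below 20 TPM and were tested only through the complex group. That count was therefore partly set by the minimum. Over 17 detected members 10 were higher and 7 lower with the complex, with a median log2 difference of 0.05. Nlrp3, the inflammasome sensor, came close: it was at 7.87, 17.8 and 14.2 TPM with BSA and at 116, 48.5 and 93.1 TPM with the complex (log2 difference 2.58, SE 0.44, adjusted p = 0.051), and it passed under median-of-ratios scaling, quantile normalization and library weights, among others.

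Immediate-early and AP-1 genes had smaller differences. Of 10 tested none was called, and 3 had an unadjusted p under 0.05 (against 14.4% of all tested symbols). Upward, 4 did not overlap (against 9.02%), and downward 1 (against 12%). The median log2 difference was 0.44, but 2 of the 10 reached the minimum only with the complex. Over 33 detected members, 18 were higher and 15 lower with the complex, with a median of 0.09. Junb, an AP-1 subunit, was at 52.4, 62.2 and 77.0 against 130, 108 and 137 TPM (adjusted p = 0.098), and Ier2 at 25.0, 23.6 and 15.8 against 47.3, 42.0 and 47.4 TPM (adjusted p = 0.17). Among interferon-stimulated genes 22 of 55 were at 0 in all 6 libraries and none of the 5 tested was called, with 1 at an unadjusted p under 0.05. Their median was 0.03. Oasl1, of the oligoadenylate synthetase-like family, did not overlap (log2 difference 1.78, limma adjusted p = 0.25) but reached the minimum only with the complex.

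The largest rises also held genes outside the cytokine, effector and NF-κB lists. Xcr1, the receptor of the chemokine XCL1, known as a mark of cross-presenting dendritic cells, was at 230, 281 and 263 TPM with BSA and at 831, 787 and 848 TPM with the complex. Its log2 difference was 1.67 (SE 0.12, adjusted p = 0.00093), it has no exon opposite another gene, and it was called in all 6 fits without 1 library. Herpud1, which takes part in the degradation of misfolded proteins of the endoplasmic reticulum (ER), was at 25.4, 23.7 and 17.2 against 97.7, 64.2 and 87.7 TPM (log2 difference 1.86, SE 0.29, adjusted p = 0.035) and was called in none of those fits, with an adjusted p up to 0.17. It was the called member among 15 tested ER stress genes, whose median was -0.08, against 0.769% of all tested symbols called higher. The ER chaperone Hspa5, chosen after its values were seen, had a log2 difference of 0.28 (adjusted p = 0.38).

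Marcksl1, a membrane-bound actin regulator, was at 77.3, 121 and 121 against 377, 380 and 521 TPM (log2 difference 2.00, adjusted p = 0.0095). Plk2, a stress-responsive polo-like kinase, was at 43.5, 28.6 and 38.0 against 136, 116 and 108 TPM (log2 difference 1.70, adjusted p = 0.025). Both groups of values were apart in each gene. The call for Marcksl1 was lost without any 1 of the complex libraries (adjusted p up to 0.053) and that for Plk2 without any 1 of the 6 (adjusted p up to 0.12). Jdp2, a repressor of the AP-1 family, rose by a log2 difference of 1.46 (132 ± 14.7 to 365 ± 50.4 TPM, SD, n = 3; adjusted p = 0.0094) and lost the call without complex replicate 1 or replicate 3 (adjusted p up to 0.061). A lncRNA gene, Gm47863, lies opposite 165 exonic bases of Jdp2.

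The remaining called rises are named after their values were seen. Odc1, the rate-limiting enzyme of polyamine synthesis, was at 281 ± 18.3 TPM with BSA and 619 ± 120 TPM with the complex (SD, n = 3; log2 difference 1.12, adjusted p = 0.025). Pik3r5, a regulatory subunit of phosphoinositide 3-kinase gamma, went from 46.6 ± 2.60 to 122 ± 14 TPM (adjusted p = 0.025), and both calls were lost in every fit without 1 library (adjusted p up to 0.11 and 0.12). The small GTPase gene Rap1b rose from 273 ± 25.1 to 621 ± 42.5 TPM (adjusted p = 0.0066) and lost the call without complex replicate 2 or replicate 3 (adjusted p up to 0.052), while Mid1, which encodes a microtubule-associated ubiquitin ligase, rose from 804 ± 108 to 1976 ± 85.7 TPM (adjusted p = 0.0033) and kept its call in all 6 of those fits. Mid1 lost its call without the trend of the variance with level (adjusted p = 0.052). Opposite 951 exonic bases of Mid1 lies G530011O06Rik, which was at 3.40 ± 3.21 TPM with BSA and 10.8 ± 2.26 TPM with the complex. Gm15726 and Gm15247 lie opposite fewer of its bases. Phtf1os, Zmynd15, Ccdc85b and Slc24a5 complete the 26 and are described with their opposite-strand partners.

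**Figure D3:**
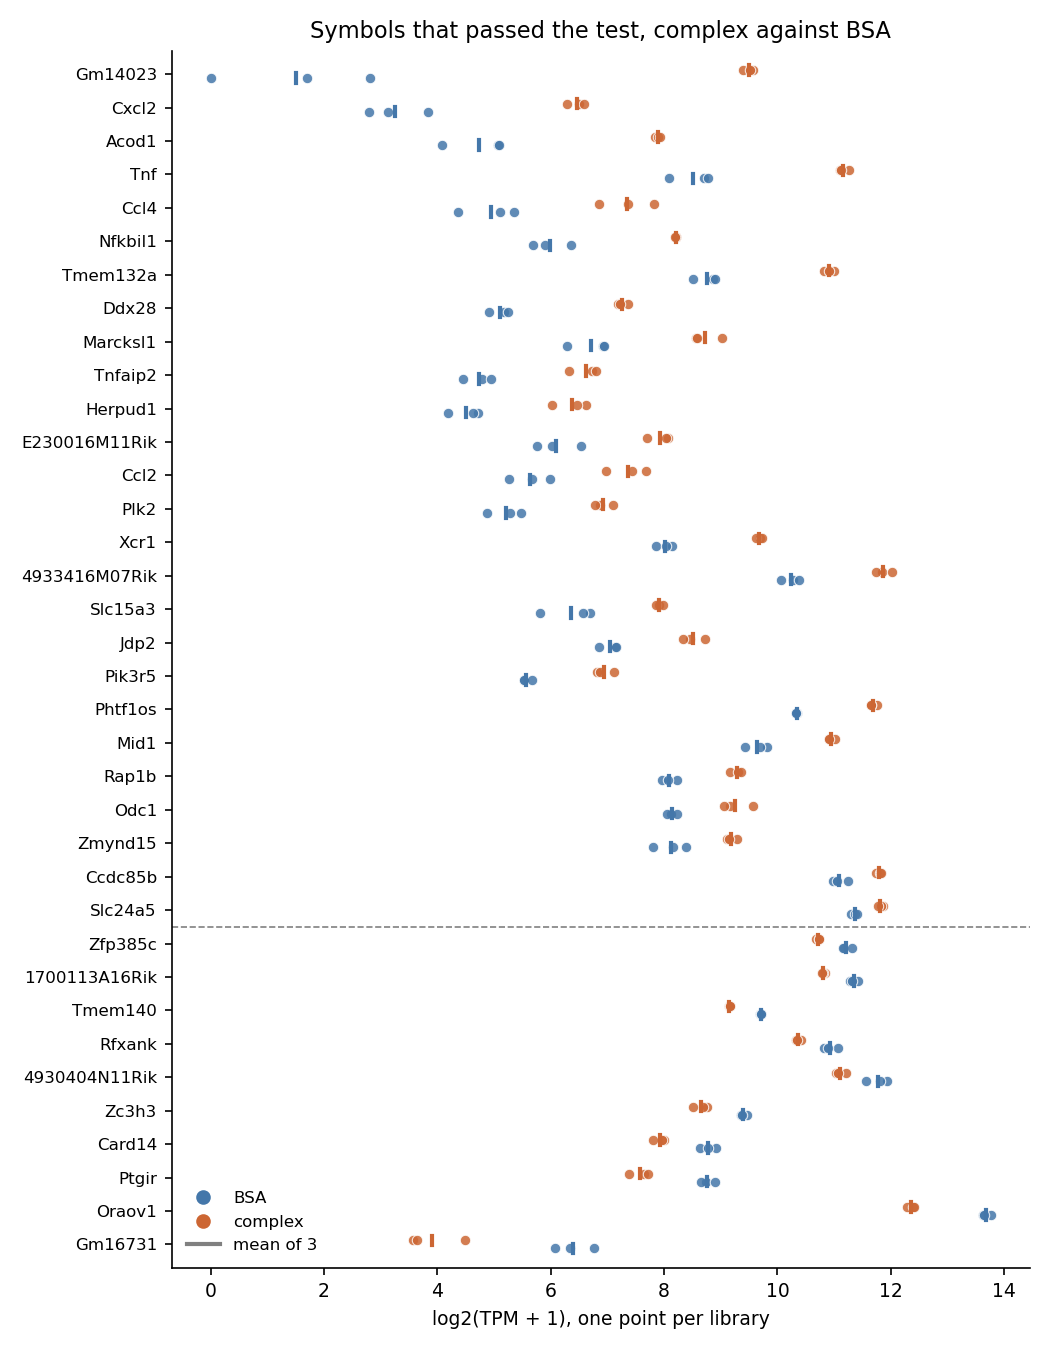
Rows are the 36 called symbols and the horizontal axis is log2(TPM + 1); points are libraries and bars are means of 3, with 26 rises above the dashed line and 10 falls below it. No complex library overlaps a BSA library in any row.

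Many called symbols lie opposite a gene of known function. Of the 36, 22 (61.1%) have an exon opposite an exon on the other strand, against 48.1% of all tested symbols; these were 14 of the 26 rises and 8 of the 10 falls. With protein-coding genes they form 21 pairs. The called symbol was the higher of the pair in 18 in the BSA libraries and in 5 in the WT livers on control diet. Called symbols had to reach 20 TPM in the RAW264.7 libraries, and partners did not. Calls were also more frequent at high levels, so these orders were partly set by the selection. The pair of Tmem132a and Slc15a3 is counted from each side. Of 12 pairs with a tested partner, 2 had the partner called and 10 had a partner with the same sign of difference.

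Gm14023 had the largest rise of the experiment, from a low base. Its log2 difference ranged from 5.87 to 9.32 over the alternatives. Gm14023 had BSA values below the most frequent value above 0 of their libraries and was tested only through the complex group. It was at 2.25, 0 and 6.03 TPM with BSA and at 763, 671 and 732 TPM with the complex, a log2 difference of 7.99 (SE 0.64, adjusted p = 0.0017), and it was called in all 6 fits without 1 library. It is a processed transcript on chr2:129297370-129307826, plus strand, and 222 of its exonic bases lie opposite Il1a (chr2:129299610-129309972, minus strand), which encodes the cytokine IL-1α and whose upstream sequence is printed above. Il1a itself was at 6.12, 3.39 and 8.17 TPM with BSA and at 0, 14.4 and 0 TPM with the complex, below the minimum for the test. In the WT control livers, as in the BSA libraries, Gm14023 was the lower of the pair. It was at 0.22 ± 0.044 TPM there, against 1.58 ± 0.47 TPM for Il1a (SD, n = 4).

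Other rises paired in the same way with immune and stress genes. Zmynd15 (280 ± 57.1 to 580 ± 38.5 TPM, SD, n = 3; log2 difference 1.06, adjusted p = 0.039) lies opposite Cxcl16, a scavenger receptor and chemokine, which was at 4.85, 21.8 and 13.3 against 26.8, 23.0 and 26.8 TPM. E230016M11Rik (69.4 ± 20.1 to 245 ± 34.1 TPM; log2 difference 1.83, adjusted p = 0.019) lies opposite Gadd45a, a growth arrest gene, which was at 4.16 to 9.98 TPM in all libraries. Ccdc85b (2188 ± 220 to 3555 ± 103 TPM; log2 difference 0.70, adjusted p = 0.016) lies opposite Fosl1, the AP-1 subunit FRA1, at 53.5 ± 22.3 and 63.6 ± 29.9 TPM. These 3 symbols stood above their partners in every RAW264.7 library. Their calls held in only 1, 2 and 1 of the 6 fits without 1 library, in that order, with adjusted p up to 0.17, 0.11 and 0.10.

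Tmem132a and Slc15a3, which share 1541 exonic bases on opposite strands of chr19, were both called. Tmem132a was at 463, 365 and 477 against 1809, 2044 and 1922 TPM (log2 difference 2.15, SE 0.13, adjusted p = 0.00048) and was called in all 6 fits without 1 library. Slc15a3, a lysosomal transporter of histidine and small peptides, was at 103, 94.6 and 54.9 against 239, 231 and 253 TPM (log2 difference 1.56, adjusted p = 0.039) and kept its call only without BSA replicate 3 (adjusted p up to 0.18). In the WT control livers Slc15a3 was the higher of the pair, at 1.45 ± 0.24 TPM against 0.060 ± 0.026 TPM (SD, n = 4).

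Phtf1os and 4933416M07Rik were abundant and tight. Phtf1os was at 1303, 1287 and 1288 against 3450, 3212 and 3226 TPM (log2 difference 1.35, SE 0.074, adjusted p = 0.00036); it lies opposite Rsbn1, which was at 14.4 ± 1.37 and 20.9 ± 1.71 TPM (adjusted p = 0.60), and opposite Phtf1. 4933416M07Rik was at 1240, 1069 and 1330 against 3669, 4132 and 3402 TPM (log2 difference 1.62, SE 0.11, adjusted p = 0.00090) and lies opposite 452 exonic bases of Rab11fip1, an effector of the recycling GTPase RAB11, which was at 5.06, 2.43 and 0.98 against 8.71, 11.7 and 10.2 TPM. Both symbols were called in all 6 fits without 1 library, and Rsbn1 and Rab11fip1 were higher in each complex library than in any BSA library.

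Nfkbil1, an IκB-like gene near Tnf on chr17, was at 81.2, 58.4 and 50.6 against 295, 296 and 292 TPM (log2 difference 2.22, SE 0.21, adjusted p = 0.0033). It shares 144 exonic bases with Atp6v1g2 on the other strand, a proton pump subunit, which was at 531 ± 47.7 and 602 ± 68.1 TPM (adjusted p = 0.59). Ddx28, a mitochondrial RNA helicase, was at 35.4, 36.9 and 29.1 against 164, 145 and 148 TPM (log2 difference 2.14, SE 0.20, adjusted p = 0.0033), opposite 72 bases of Dus2, which was at 0 to 7.78 TPM. Both rises were called in all 6 fits without 1 library. Slc24a5, a cation exchanger known from melanosomes, rose from 2630 ± 105 to 3608 ± 122 TPM (log2 difference 0.46, adjusted p = 0.035) opposite Myef2, which was at 1109 ± 33.4 and 1295 ± 24.5 TPM (adjusted p = 0.28); its call was lost in every fit without 1 library (adjusted p up to 0.16).

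**Figure D4:**
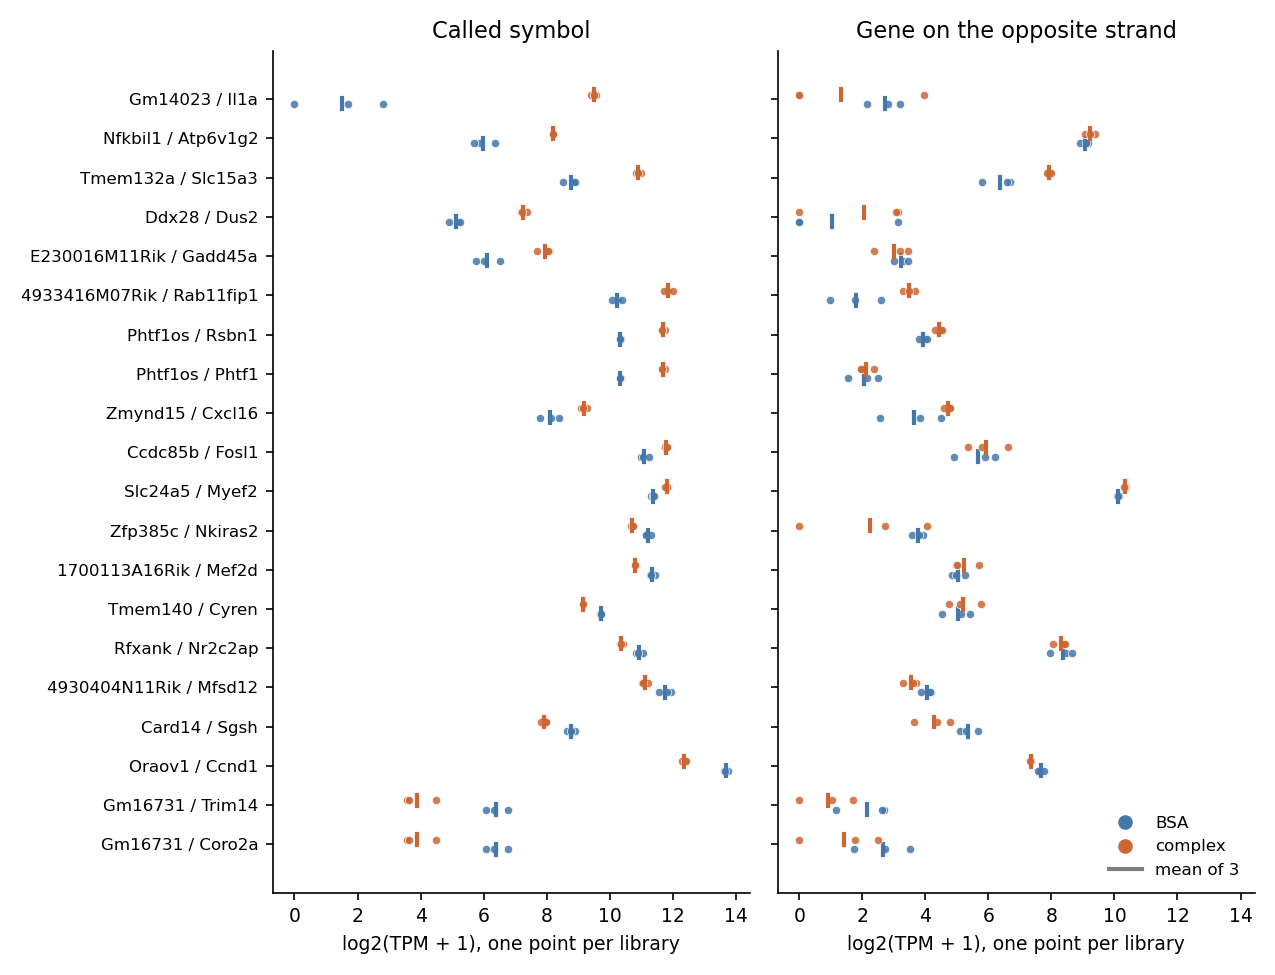
Rows are called symbols (left) and the protein-coding gene on the opposite strand (right), on log2(TPM + 1); points are libraries and bars are means of 3. Most called symbols stand above their partner, which partly follows from the 20 TPM minimum that called symbols had to reach and partners did not. Gm14023 reached 671 to 763 TPM with the complex while Il1a reached at most 14.4 TPM. Nfkbil1 stood below Atp6v1g2 in both groups.

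Oraov1 had the smallest p of the experiment and fell. It was at 13903, 12684 and 12823 TPM with BSA and at 4986, 5344 and 5428 TPM with the complex, a log2 difference of -1.32 (SE 0.066, adjusted p = 0.00036), a ratio of BSA over complex of 2.50. The groups were far apart, and it was called in all 6 fits without 1 library. It lies on chr7:144915100-144931701, plus strand, and 1100 of its exonic bases lie opposite Ccnd1 (chr7:144929931-144939925, minus strand), which encodes the G1 cyclin D1. Ccnd1 was at 200, 215 and 189 against 163, 162 and 159 TPM; the groups did not overlap, but it did not pass (log2 difference -0.32, adjusted p = 0.37). In the WT control livers Oraov1 was at 9.86 ± 1.02 and Ccnd1 at 14.2 ± 5.70 TPM (SD, n = 4).

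The other falls were smaller or rested on lower levels. Ptgir, the receptor of prostacyclin, was at 425, 402 and 477 against 199, 208 and 165 TPM (log2 difference -1.19, SE 0.15, adjusted p = 0.015), has no exon opposite another gene, and kept its call only without BSA replicate 2 (adjusted p up to 0.078). Zc3h3, a zinc finger protein of mRNA export, was at 704, 654 and 662 against 433, 411 and 363 TPM (log2 difference -0.75, adjusted p = 0.035). Card14, a scaffold protein of NF-κB signalling known from skin, was at 479, 395 and 436 against 253, 250 and 224 TPM (log2 difference -0.85, adjusted p = 0.037); opposite it, Sgsh, a lysosomal sulfatase, was at 33.6, 49.9 and 38.2 against 26.4, 11.6 and 19.6 TPM (adjusted p = 0.27). The calls for Zc3h3 and Card14 were lost in every fit without 1 library, with adjusted p up to 0.14 and 0.17.

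Gm16731 had the largest called fall, a log2 difference of -2.49 (SE 0.36, adjusted p = 0.026), from 108, 66.6 and 80.1 TPM to 10.9, 11.5 and 21.5 TPM. In units of the most frequent value of each library these were 11, 6 and 6 against 1, 1 and 2, and it kept its call only without complex replicate 3 (adjusted p up to 0.12). It lies opposite Coro2a and Trim14, which reached at most 10.3 and 5.48 TPM. The 5 other falls, Rfxank (a subunit of the regulator of MHC class II genes), Tmem140, Zfp385c, 4930404N11Rik and 1700113A16Rik, had log2 differences between -0.66 and -0.50. All 5 lie opposite a protein-coding gene at a lower level: Nr2c2ap, Cyren, Nkiras2, Mfsd12 and Mef2d, in that order. They were called in none of the fits without 1 library, except 4930404N11Rik, called in 1 of 6, and their adjusted p reached 0.12 to 0.20.

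On the gene lists, 48 genes had a tested symbol on the opposite strand, in 51 pairs. In 35 of these the opposite symbol was the higher of the pair with BSA. The opposite symbol had to reach 20 TPM in a group, and the list gene did not. This order was therefore partly set by the minimum. Of these 51 symbols 4 were called, against 1.06% of all tested symbols and 22 of the 1627 tested symbols with an opposite-strand exon. The 4 were Gm14023, Zmynd15, Ccdc85b and Oraov1, all described above. Calls were also more frequent at high levels, and Ccdc85b and Oraov1 lay above 1000 TPM. Close below the threshold, and chosen after their values were seen, were Gm15441, opposite the thioredoxin inhibitor gene Txnip, at 6618 ± 965 and 4255 ± 369 TPM (log2 difference -0.63, adjusted p = 0.064), and Exosc9, opposite the cyclin gene Ccna2, at 3609 ± 166 and 2704 ± 100.3 TPM (log2 difference -0.42, adjusted p = 0.051). Psd, opposite Nfkb2, was at 60.3 ± 10.3 and 130 ± 14.4 TPM (log2 difference 1.11, adjusted p = 0.064).

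Lists of macrophage function and housekeeping held no called gene by limma. Among 23 tested macrophage identity genes the median log2 difference was 0.01, and 4 had an unadjusted p under 0.05, against 14.4% of all tested symbols. Spi1, the macrophage transcription factor PU.1, was at 36.4, 100.2 and 72.6 against 148, 106 and 156 TPM (adjusted p = 0.27), and Ncf1, a subunit of the phagocyte oxidase, at 81.5, 105 and 66.3 against 139, 137 and 112 TPM (adjusted p = 0.27); opposite Ncf1, Gtf2ird2 was at 218 ± 26.4 and 406 ± 62.8 TPM (adjusted p = 0.064). Of 22 lysosome and lipid handling genes 3 had an unadjusted p under 0.05, with a median of -0.18. Ctsa, lysosomal protective protein, was at 701, 791 and 788 against 527, 470 and 522 TPM (log2 difference -0.59, adjusted p = 0.064), and Mcoln1, a lysosomal calcium channel, did not overlap downward (adjusted p = 0.25).

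For matrix, protease and fibrogenic genes the median was 0.09 over 13 tested, of which 2 had an unadjusted p under 0.05, against 14.4% of all tested symbols. Of the 13, 3 reached the minimum only with the complex. Over 19 detected members 15 were higher and 4 lower with the complex. Their median was 0.45, against -0.08 over all detected symbols. The metalloproteinase gene Mmp19 was at 98.9, 162 and 166 against 68.0, 83.6 and 43.5 TPM, and Plaur, the urokinase receptor, at 42.6, 52.4 and 47.7 against 91.5, 55.3 and 81.9 TPM (adjusted p = 0.17 and 0.32). Of 22 NRF2 and oxidative stress genes 3 had an unadjusted p under 0.05, with a median of 0.02. Sqstm1, the autophagy receptor p62, was at 289, 379 and 322 against 587, 495 and 535 TPM (log2 difference 0.71, adjusted p = 0.078), and the metallothionein gene Mt2 sat at 6, 5 and 4 against 13, 8 and 9 times the most frequent value of its libraries (adjusted p = 0.12).

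The metabolic and proliferation lists had no call and medians near or below that of all tested symbols. The median was -0.47 over 24 cell cycle genes (0 at an unadjusted p under 0.05), -0.20 over 38 oxidative phosphorylation genes (3), -0.02 over 15 glycolysis and hypoxia genes (0), 0.10 over 14 cholesterol genes (0) and -0.05 over 13 housekeeping genes (0). Of the cell cycle genes 5 had a positive difference. Downward, 3 of the 24 did not overlap, Ccnd1 among them, a share near the 12% of all tested symbols. Of the 24, 5 reached the minimum only with BSA, so the list median was partly set by the minimum. Over 49 detected members 12 were higher and 37 lower with the complex, with a median of -0.53, against -0.08 over all detected symbols. Ndufv1, a complex I subunit, was at 7.11, 8.13 and 9.76 against 62.7, 33.0 and 15.6 TPM, and Cox7a2, of cytochrome c oxidase, was at 3, 8 and 4 against 0, 1 and 2 times the most frequent value (adjusted p = 0.22 and 0.30). Actb, the cytoskeletal actin used as a reference gene, was at 519, 704 and 601 against 759, 670 and 708 TPM (limma adjusted p = 0.50). B2m, also on the housekeeping list, was at 16.5, 37.1 and 22.1 against 12.7, 19.6 and 6.15 TPM, and its groups overlapped (limma adjusted p = 0.51). None of these values separates lower expression in every cell from fewer expressing cells, since the libraries are bulk RNA.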

How the data were processed

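Libraries were made with the Illumina TruSeq Stranded mRNA kit from RNA isolated with the Qiagen miRNeasy micro kit, per the labels' protocols. The authors deposited 2 separately normalized tables of gene values, whose headers name no unit. Each column sums to 999687 to 999995, and the values were taken as TPM made by the authors. Per the submitters' processing notes the genome was mm10. No aligner, counter, annotation or strand setting is given in the sources used here.

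Differences were tested with limma 3.58.1 (R 4.3.3, eBayes with trend, two-sided, Benjamini-Hochberg) on log2(TPM + 1) over the 6 RAW264.7 libraries, for symbols whose mean reached 20 TPM in either group. A fold on this scale understates the change of low genes. The 2 symbols on duplicated rows were left out. Of 24968 symbols, 24518 were placed with GENCODE vM21 on GRCm38, by name or RefSeq synonym, to find exons on opposite strands. Promoters came from RefSeq. The code was tested on simulated data.

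Gene lists and members were chosen with earlier results of these data known. Most genes named without a remark on their choice came from rules, and not every gene that the rules give is described. The rules took the genes of the complex and its receptors and the 15 largest non-overlapping called rises and falls. They also took 5 of each with predicted names and opposite-strand partners. Of each list they took up to 6 called members or else the 2 with the smallest p. Alternatives changed the pseudocount, minimum, threshold, scaling, variance model, block, libraries and opposite-strand genes. The depth per sample is unknown, so no counting interval is given.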

Additional observations from a re-analysis of the deposited data

How the results depend on the processing

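No called symbol changed its sign under any of the 20 alternatives, and 9 were called in each of those in which they were tested: Gm14023, Acod1, Tnf, Nfkbil1, Tmem132a, Xcr1, 4933416M07Rik, Phtf1os and Oraov1. The counts moved more. In place of 36 called symbols, 26 higher and 10 lower, with 7 on the gene lists, a minimum of 1 TPM gave 19 called, 16 higher and 3 lower, with 4 on the lists. A minimum of 50 TPM gave 63, 40 and 23, with 11 on the lists, and no minimum gave 14, 13 and 1, with 3 on the lists; these settings change how many symbols are tested. An adjusted p under 0.01 gave 15, 14 and 1, with 3 on the lists, and a 2-fold minimum left 3 lower. Without symbols that have an exon on the opposite strand 12 were called, 11 higher and 1 lower; with TPM rescaled over the rest 6 were called, all higher, with 3 on the lists and 0 lower by limma (343 at an unadjusted p under 0.05). Without the trend 21 were called, 3 of them lower, and the cause was not tested. Scaling moved the falls: 5 lower under quantile normalization and 3 under median-of-ratios scaling, with 27 higher in each. Rescaling without the most abundant symbol, Eyelinc18, chosen after seeing the data, gave 34. Eyelinc18 held 14.4 to 16.5% of the TPM in the RAW264.7 libraries.

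Leaving out 1 library gave 12 to 21 called symbols, 11 to 17 higher and 1 to 5 lower, with 2 to 4 on the lists. With the replicate number as a replicate block 11 were called, 10 higher and 1 lower, with 2 on the lists. Deviations of same-numbered libraries from their group means correlated at -0.056, -0.064 and -0.044, and no library correlated best with its own number. Deviations within a group cancel by construction, which ties these values to one another. Whether the numbers pair the samples therefore stays unknown. The share of TPM on symbols with an opposite-strand partner was 74.3% by exons and 77.1% by gene bodies. Depth is unknown, and the most frequent value of 9.85 to 13.4 TPM limits what low values can show.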

Other observations

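Some of the widest differences belonged to symbols that were not called and whose values rest on few libraries; they are named after their values were seen. Mir6481 was listed at 0 in the BSA libraries and at 683, 2153 and 0 TPM with the complex, and Mir6353 was at 1669 TPM in BSA replicate 3 and at 0 in the other 5 libraries. Gm11517 and C330022C24Rik held the same values in all 6 libraries, 0 with BSA and 10.9, 45.9 and 21.5 TPM with the complex (adjusted p = 0.26). Il17c, an epithelial cytokine of the IL-17 family, was likewise listed at 0 with BSA and at 51.4, 21.9 and 10.3 TPM with the complex (adjusted p = 0.26). Rab20, a GTPase of phagosome maturation, was at 9.85, 0 and 0 against 98.3, 34.4 and 10.8 TPM (adjusted p = 0.25). Hmces, a DNA repair protein, was at 8.38, 19.0 and 34.1 TPM with BSA and listed at 0 in all complex libraries (adjusted p = 0.35). Gm11517, C330022C24Rik, Il17c and Hmces passed without the trend of the variance with level and under no other alternative. Mir6481 passed only without complex replicate 3, and Mir6353 and Rab20 passed under none.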
